A study of Mus musculus with 2 samples.

Results

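Cadherins and protocadherins are cell-adhesion proteins that were followed here in forebrain RNA of B6NCrl mice on the day of birth. Members were chosen by name: every protein-coding gene whose symbol begins with Cdh and a digit, or with Pcdh, which gave 92 of the 21474 protein-coding genes listed. They comprised 18 classical cadherins (5 of type I and 13 of type II), 5 other cadherins, 9 delta protocadherins, 3 other non-clustered protocadherins, and the clustered protocadherins, with 14 members in the alpha, 22 in the beta and 21 in the gamma cluster. The measured material was tissue RNA longer than 200 nt at postnatal day 0, taken at 13 pg, or 1 cell-equivalent by the labels, so each library sampled RNA of all forebrain cell types. There were 2 libraries and 1 group, with no treatment or mutation in the labels: pup 1 (replicate 1) and pup 3 (replicate 2), each the forebrain of a separate pup by its description, although the labels carry the same donor identifier for both. With 1 library per pup no difference was tested, and sampling at this input, handling and the animals themselves cannot be told apart.

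Cadherins span the membrane and bind partners on the next cell through calcium-dependent extracellular repeats. Classical cadherins anchor to actin through catenins, and in the developing forebrain they hold the neuroepithelium together and help sort neurons into layers and nuclei. Delta protocadherins lack the catenin-binding tail and mark subsets of brain regions and circuits. The clustered protocadherins are chosen promoter by promoter, so that individual neurons carry different combinations, which serve in self-recognition of dendrites and axons. In the alpha and gamma clusters a variable exon for the extracellular part is spliced to constant exons for the shared tail, whereas beta genes have no constant exons.

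The deposited expected reads summed to 41082811 in pup 1 and 29881397 in pup 3, of which 117490 (0.286%) in pup 1 and 67115 (0.225%) in pup 3 fell on members. Levels are TPM, an abundance per transcript length with the same total in each library. A gene was called found at 1 TPM or more. A count of 0 was allowed up to 3 reads. Over all 92 members, with or without reads, 3 reads were worth 0.012 to 0.215 TPM in pup 1. In pup 3 they were worth 0.014 to 0.086 TPM. This floor covers read counting only and sets no bound on RNA missed when 13 pg was sampled. Neuron markers were found at 8 of 8 in pup 1 and 7 of 8 in pup 3. Radial glia and astrocyte markers were likewise found at 8 of 8 in pup 1 and 7 of 8 in pup 3. Excitatory neuron markers were found at 6 of 7 in pup 1 and 5 of 7 in pup 3. GABAergic neuron markers were found at 4 of 5 in pup 1 and 3 of 5 in pup 3. Of all protein-coding genes, 42.2% were found in pup 1 and 29.0% in pup 3. That the tissue is forebrain rests on the labels and was not tested.

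The whole family summed to 983.65 TPM in pup 1 and 749.82 TPM in pup 3. In pup 1, 49 of the 92 members were found (53.3%), against 42.2% of all protein-coding genes. In pup 3, 22 were found (23.9%), against 29.0% of all protein-coding genes. In all, 17 members were found in both pups (18.5%, against 24.8% of all protein-coding genes), and 54 in at least 1 pup (58.7%, against 46.4%). Pup 1 alone gave 32 members (34.8%, against 17.4%) and pup 3 alone gave 5 (5.4%, against 4.21%). In both libraries 28 members had 0 reads (30.4%, against 46.8%). The members' share found was therefore above the background in pup 1 and below it in pup 3. Pup 1 was also the deeper library, and the part of depth in this difference was not tested.

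The gamma cluster held the largest sum among the 7 classes in both pups, with 331.45 TPM in pup 1 and 207.48 TPM in pup 3. Classical cadherins followed with 247.09 TPM in pup 1 and 146.06 TPM in pup 3. Delta protocadherins gave 132.37 TPM in pup 1 and 144.76 TPM in pup 3, and the alpha cluster gave 130.76 TPM in pup 1 against 40.28 TPM in pup 3. The beta cluster ran the other way, with 24.65 TPM in pup 1 and 103.98 TPM in pup 3. On the log2 scale the ratio of pup 1 over pup 3 was 1.70 for alpha, 0.76 for classical cadherins, 0.68 for gamma, -0.13 for delta and -2.08 for beta. Read counting alone gave 95% exact binomial half-widths from 0.025 (gamma) to 0.063 (beta) on that scale. These widths cover counting error only, since amplified reads are not independent molecules, and they do not stand in for replicates of a pup.

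**Figure D1:**
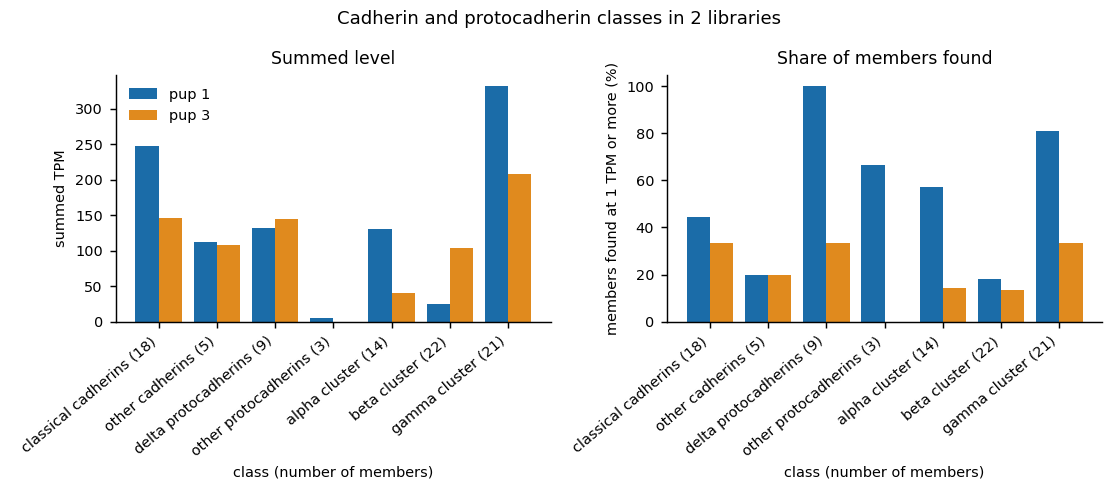
Left, summed TPM of each class in pup 1 and pup 3; right, the percent of its members found at 1 TPM or more, with the number of members in brackets. The gamma sum is the largest in both pups (331.45 TPM in pup 1, 207.48 TPM in pup 3), and the beta cluster is the class whose sum is several times larger in pup 3.

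Among type I classical cadherins, 2 genes carried nearly the whole signal in both pups. Cdh4, or R-cadherin, is encoded at chr2:179442431-179899373 (mm10, plus strand) and had 103.31 TPM in pup 1 and 49.30 TPM in pup 3 (mean 76.3 ± 38.2, SD, n = 2), from 17189 reads in pup 1 and 3118 reads in pup 3. Cdh2, or N-cadherin, the main cadherin of neural progenitors and of many synapses, had 64.10 TPM in pup 1 and 42.73 TPM in pup 3 (mean 53.4 ± 15.1, SD, n = 2). Both genes were higher in pup 1. Cdh4 stood above Cdh2 in both pups on gene TPM, but in pup 3 that order turned on reads, with 3118 for Cdh4 and 3892 for Cdh2, and on the Cdh4 coding transcript alone (18.19 TPM). Cdh15, or M-cadherin, known from muscle and cerebellum, had 12.33 TPM (898 reads) in pup 1 but 0 reads in pup 3. Its locus lies on the same strand inside the long annotated gene Gm20388, which had 1566.86 expected reads in pup 1 and 0 in pup 3. No 100-base window of the Cdh15 transcript occurs in any other listed transcript with a sequence in M21, Gm20388 included, and the counter's posterior SD of its reads was 0. Skeletal muscle markers were found at 0 of 4 in each pup, with summed levels of 0.79 TPM in pup 1 and 0.26 TPM in pup 3, and Myod1 and Myog had 0 reads in both. E-cadherin (Cdh1) and P-cadherin (Cdh3), cadherins of epithelia, had 0 reads in both libraries. The epithelial markers Epcam, Krt8 and Cldn4 also had 0 reads in both, while Krt18 had 26.85 TPM in pup 1 and 61.86 TPM in pup 3.

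Type II cadherins, which mark regional divisions and fibre tracts of the forebrain, summed to 67.35 TPM in pup 1 and 54.03 TPM in pup 3. Cdh11, also called osteoblast cadherin, had 16.13 TPM in pup 1 and 25.98 TPM in pup 3 (mean 21.1 ± 7.0, SD, n = 2). Cdh8 had 24.34 TPM in pup 1 and 17.09 TPM in pup 3 (mean 20.7 ± 5.1, SD, n = 2). These neighbours in level did not differ beyond their spread, and they changed places between the pups. Cdh10 had 10.22 TPM in pup 1 and 4.69 TPM in pup 3. Cdh7 had 8.29 TPM in pup 1 but 0 reads in pup 3. Its effective length in pup 1, 4677 bases, was that of ENSMUST00000146282, a transcript of 4776 bases in 2 exons. The longest Cdh7 coding sequence lies in another transcript, ENSMUST00000112701, so the Cdh7 level is not a level of that coding form. Cdh6, which marks the lateral ganglionic eminence in the mouse embryo, had 0 reads in pup 1 and 6.27 TPM in pup 3. Cdh5, or VE-cadherin, the adhesion protein of endothelial junctions, had 8.21 TPM (847 reads) in pup 1 but 0 reads in pup 3. Endothelial markers were found at 3 of 8 in each pup and summed to 57.81 TPM in pup 1 and 208.63 TPM in pup 3, in the direction opposite to Cdh5. Of these, Kdr, Tek and Emcn had 0 reads in both pups, while Flt1 had 132 reads in pup 1 and none in pup 3, and Pecam1 had 1 read in pup 1 and none in pup 3. In tissue RNA, fewer cells of a type and less RNA per cell cannot be told apart. The remaining 7 type II genes stayed below 1 TPM: Cdh20 had 11 reads, Cdh12 had 4 reads and Cdh18 had 1 read in pup 1, each with 0 in pup 3, and Cdh9, Cdh19, Cdh22 and Cdh24 had 0 reads in both.

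**Figure D2:**
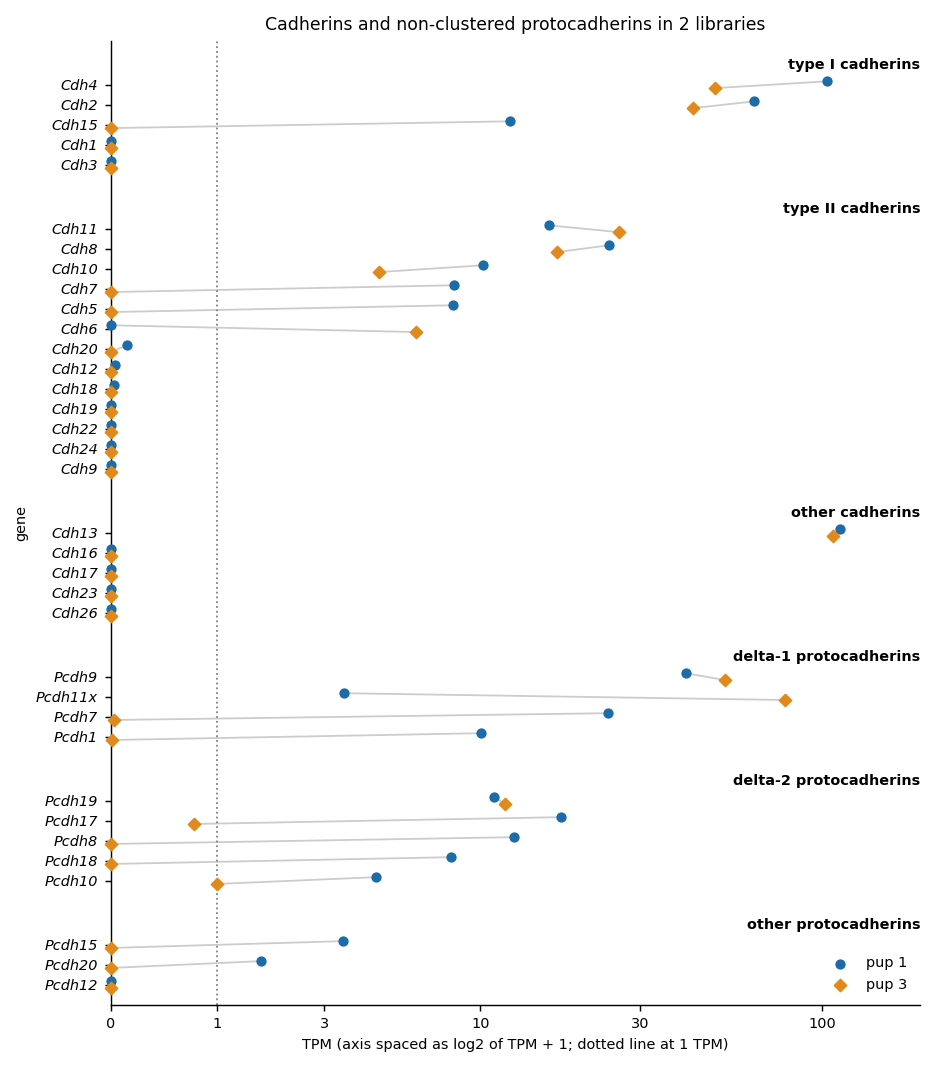
TPM of the 35 cadherins and non-clustered protocadherins, 1 row per gene, with pup 1 (circles) above pup 3 (diamonds) and the axis spaced as log2 of TPM + 1. Cdh13 sits at nearly the same place in both pups (112.17 TPM in pup 1, 107.26 TPM in pup 3), whereas Pcdh11x, Pcdh7 and Cdh15 lie far apart.

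The classes of classical cadherin differ in the strand that swaps between partner molecules at the tip of the protein: type I inserts 1 tryptophan and type II inserts 2. The stretches below are shown because they carry that difference among members found here. Each gives the 4 codons of the basic cleavage motif that ends the propeptide (an arginine codon, any codon, a lysine or arginine codon, and an arginine codon), followed by the first 8 codons of the mature protein, 36 bases in all, with TGG tryptophan codons at mature positions 2 and 4 in capitals. They were read from GENCODE M21 coding sequence on mm10, 5′ to 3′ in the sense of the gene.
Cdh4 (type I, plus strand, chr2:179797548-179797583): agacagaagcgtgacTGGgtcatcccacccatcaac
Cdh15 (type I, plus strand, chr8:122856580-122856615): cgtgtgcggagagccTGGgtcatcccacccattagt
Cdh8 (type II, minus strand, chr8:99400771-99400806): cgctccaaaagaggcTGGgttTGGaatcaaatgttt
Cdh11 (type II, minus strand, chr8:102679657-102679692): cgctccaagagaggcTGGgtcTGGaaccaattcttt
Cdh10 (type II, plus strand, chr15:18899739-18899774): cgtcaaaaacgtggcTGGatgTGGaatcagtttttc
Cdh13 (other, plus strand, chr8:118757404-118757439): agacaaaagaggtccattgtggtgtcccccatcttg
All 5 type I genes hold the codon at position 2 and none at position 4, and all 13 type II genes hold it at both. Cdh13 holds it at neither. Of the type I genes 2 were found in both pups and of the type II genes 3, against 24.8% of all protein-coding genes. Genes with 0 reads occur in both classes.

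Cdh13, or T-cadherin, is held to the membrane by a lipid anchor and has no cytoplasmic tail. It had the highest mean level of all 92 members and the closest agreement among the 5 highest, with 112.17 TPM in pup 1 against 107.26 TPM in pup 3 (mean 110 ± 3.5, SD, n = 2), from 8310 reads in pup 1 and 5681 reads in pup 3. Its gene spans chr8:118283733-119324921 (mm10, plus strand). The other 4 members of its class had 0 reads in both libraries: Cdh16, known from kidney, Cdh17, known from liver and intestine, Cdh23, a component of the tip links of inner-ear hair cells, and Cdh26. Pcdh15, the partner of Cdh23 in tip links, had 3.51 TPM (839 reads) in pup 1 but 0 reads in pup 3. Pcdh20 had 1.65 TPM in pup 1 but 0 reads in pup 3, and Pcdh12, an endothelial protocadherin, had 0 reads in both.

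All 9 delta protocadherins were found in pup 1 and 3 of them in pup 3: Pcdh9, Pcdh11x and Pcdh19. Of all protein-coding genes, 42.2% were found in pup 1 and 29.0% in pup 3. Pcdh9, a delta-1 member, had 40.65 TPM in pup 1 and 52.73 TPM in pup 3 (mean 46.7 ± 8.5, SD, n = 2). Pcdh19, a delta-2 member whose human counterpart is mutated in an X-linked epilepsy, had 11.05 TPM in pup 1 and 11.88 TPM in pup 3 (mean 11.5 ± 0.59, SD, n = 2). Both genes lay within 1 log2 unit between pups. Pcdh11x, a delta-1 gene of the X chromosome at chrX:120290259-120910619 (mm10, plus strand), had 3.55 TPM (414 reads) in pup 1 and 78.41 TPM (7892 reads) in pup 3. Its log2 ratio of pup 1 over pup 3, -4.47, was the lowest among the 17 members found in both pups.

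The other delta members were all higher in pup 1. Among delta-1 genes, Pcdh7, the counterpart of frog NF-protocadherin, had 24.12 TPM (3775 reads) in pup 1 and 0.02 TPM (1 read) in pup 3, and Pcdh1 had 10.07 TPM (1025 reads) in pup 1 and 0.01 TPM (1 read) in pup 3. Among delta-2 genes, several of which bind the WAVE complex that drives actin branching, Pcdh17, a synaptic protein of basal ganglia circuits, had 17.52 TPM in pup 1 and 0.72 TPM in pup 3. Pcdh8, known in rat as the activity-induced protein arcadlin, had 12.70 TPM in pup 1 but 0 reads in pup 3. Pcdh18, which binds the adaptor Dab1, had 8.11 TPM in pup 1 but 0 reads in pup 3, and Pcdh10, needed for striatal axon growth in the mouse, had 4.60 TPM in pup 1 and 0.99 TPM in pup 3, just under the threshold that Pcdhga3 met there at 1.00 TPM. The subclasses therefore ran in opposite directions, with delta-1 sums of 78.39 TPM in pup 1 and 131.17 TPM in pup 3 and delta-2 sums of 53.98 TPM in pup 1 against 13.59 TPM in pup 3. The pup 3 sum of delta-1 came almost wholly from Pcdh11x, which held 59.8% of it, and Pcdh9.

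The transcripts behind the non-clustered genes also differed between pups, and 2 of the sequences that set transcripts apart are shown. The bases below come from GENCODE M21 transcripts on mm10. For Cdh4, the coding transcript ENSMUST00000000314 (6388 bases, 16 exons) had 102.95 TPM in pup 1 and 18.19 TPM in pup 3. A 747-base transcript with a retained intron, ENSMUST00000129659, had 0.36 TPM (6.13 reads) in pup 1 and 31.11 TPM (467.14 reads) in pup 3. It made up 0.35% of Cdh4 TPM in pup 1 and 63.1% in pup 3. Its 144 retained bases lie just before exon 15 of the coding transcript, and the boundary is printed with the last 60 intron bases in lower case and the first 60 exon bases in capitals.
Cdh4 retained-intron boundary (plus strand, chr2:179893968-179894087): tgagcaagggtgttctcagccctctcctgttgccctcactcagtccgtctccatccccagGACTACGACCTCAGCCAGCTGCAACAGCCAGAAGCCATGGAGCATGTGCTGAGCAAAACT
The gene-level TPM of Cdh4 in pup 3 thus rested for its larger part on few reads over a short transcript, and on reads the log2 ratio of pup 1 over pup 3 was 2.46, against 1.07 on TPM. For Pcdh9, exon 3 of ENSMUST00000195826 is a coding exon of 102 bases, or 34 codons, all in capitals below, that the transcript ENSMUST00000193901 skips.
Pcdh9 exon 3 (minus strand, chr14:93560476-93560577): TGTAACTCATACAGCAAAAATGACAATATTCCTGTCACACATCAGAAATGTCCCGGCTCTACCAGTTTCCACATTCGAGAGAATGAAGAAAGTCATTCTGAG
The form with that exon had 10.88 TPM in pup 1 and 0 TPM in pup 3, and ENSMUST00000193901 without it had 14.74 TPM in pup 1 and 28.57 TPM in pup 3. ENSMUST00000192221, which also skips it, had 1.33 TPM in pup 1 and 20.28 TPM in pup 3, and ENSMUST00000194056, which ends before it, had 13.70 TPM in pup 1 and 3.52 TPM in pup 3.

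For Cdh13, the coding transcript ENSMUST00000117160 made up 71.8% of gene TPM in pup 1 and 55.2% in pup 3. A 620-base processed transcript, ENSMUST00000151842, made up 28.3% in pup 1 and 31.5% in pup 3, from 438.22 reads in pup 1 and 408.09 reads in pup 3. A 715-base transcript with a retained intron, ENSMUST00000129548, had 0 TPM in pup 1 and 13.83 TPM (197.46 reads, 12.9%) in pup 3. Cdh2 had 2 coding transcripts in steady proportion, with ENSMUST00000115850 at 70.7% in pup 1 and 76.9% in pup 3. Pcdh7 was divided in pup 1 between ENSMUST00000191837 (55.3%) and ENSMUST00000192287 (44.7%), and its 1 read in pup 3 allows no comparison. In Cdh8, Pcdh19 and Pcdh11x the leading transcript differed. Cdh8 was divided in pup 1 between ENSMUST00000155527 (51.9%) and ENSMUST00000142129 (47.9%), and in pup 3 it was 95.2% ENSMUST00000142129. Pcdh19 was 78.9% ENSMUST00000060309 in pup 1 and 77.4% ENSMUST00000167944 in pup 3. The reads of Pcdh11x in pup 3 were assigned almost wholly to ENSMUST00000050239 (99.9% of its TPM), which was at 0 in pup 1. On the deposited posterior mean that share in pup 3 was 65.7%, with 33.6% in ENSMUST00000113364, a transcript that held 22.8% of Pcdh11x TPM in pup 1, so the share depends on the estimate used. Shares per transcript are estimates of the counter where transcripts share exons, and they rest on 1 library each.

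**Figure D3:**
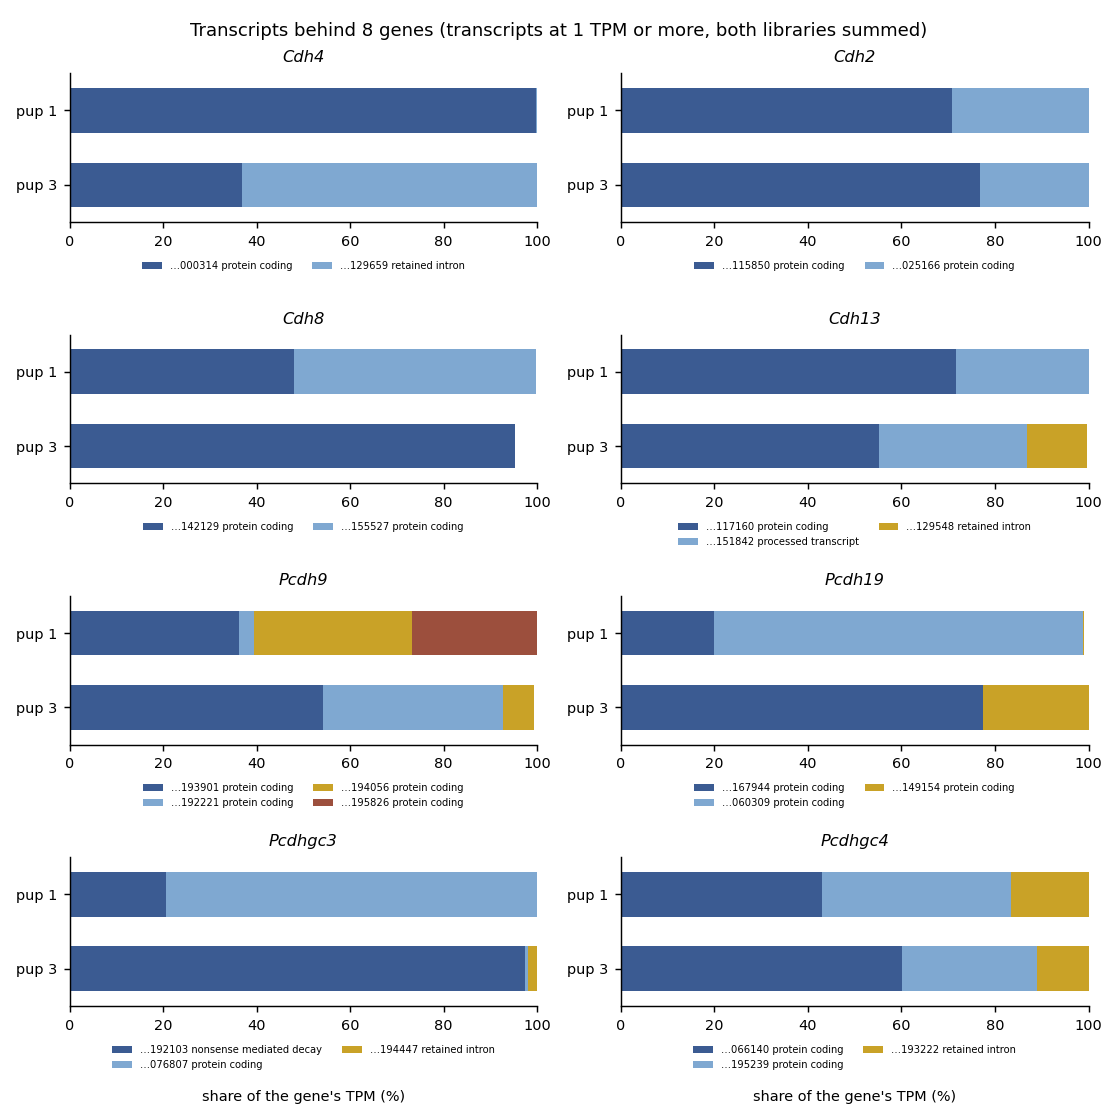
Share of a gene's TPM in each annotated transcript, in percent, for 8 genes, with pup 1 above pup 3; the last 6 digits of each transcript identifier and its annotated type are given, and white space is transcripts below 1 TPM. The retained-intron transcript of Cdh4 takes 0.35% in pup 1 and 63.1% in pup 3, while the leading Cdh2 transcript takes 70.7% in pup 1 and 76.9% in pup 3.

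All 57 clustered members lie on chromosome 18 (mm10, plus strand), the alpha cluster at 36930184-37187661, the beta cluster at 37264938-37524479 and the gamma cluster at 37661793-37841873. Because alpha and gamma transcripts share their constant exons, reads from those exons fit many members and were divided among them by the counter. In 1 transcript per gene, the most abundant by mean TPM, the median share of 100-base windows also present in another member was 55.4% in alpha (range 47.7% to 74.7%) and 44.4% in gamma (range 40.7% to 64.0%). It was 0.2% in beta (range 0% to 7.7%) and 0% in every cadherin and non-clustered protocadherin. The common end measured 2863 bases in alpha (median) and 2122 bases in gamma, where 20 of 21 members share it, and 20 of these 22 beta transcripts are a single exon. The counter's own uncertainty followed the same order: in pup 1 the posterior SD, over members with 100 or more reads, had a median of 2.96% of the reads in alpha (7 members), 2.47% in gamma and 0.07% in beta. The shorter of the Pcdha11 entries described below, found but under that minimum, had an SD of 7.06 on 59.02 reads. The summed reads of a cluster do not depend on how they were divided within it, whereas values of alpha and gamma members do. The summed TPM of a cluster can also change with that division, because its transcripts differ in length.

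**Figure D4:**
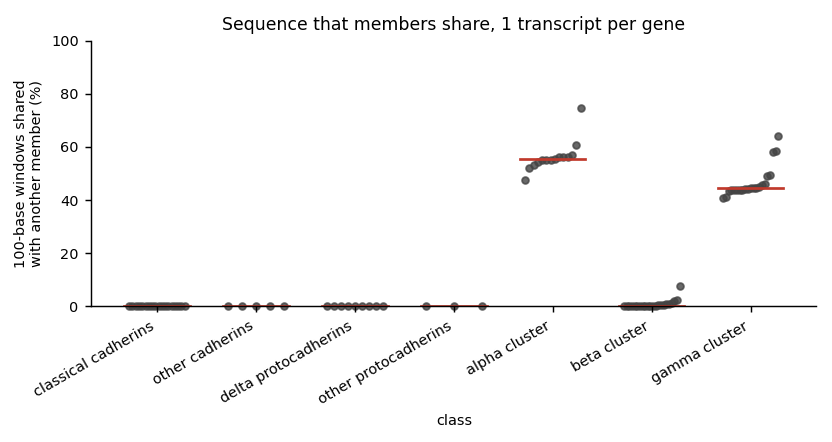
Percent of 100-base windows of 1 transcript per gene (the most abundant by mean TPM) that also occur in another member, by class (points are genes, lines are medians). The alpha and gamma clusters stand at medians of 55.4% and 44.4%, the beta cluster at 0.2% and all other classes at 0%.

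In the alpha cluster 8 of 14 members were found in pup 1 (against 42.2% of all protein-coding genes) and 2 in pup 3 (against 29.0%). The pup 1 signal was spread over more members: Pcdha2 had 28.84 TPM, Pcdha6 24.09 TPM, Pcdha4 23.82 TPM and Pcdha7 11.56 TPM. In pup 3, Pcdha4 was at 0.13 TPM and the other 3 of these had 0 reads. Pcdha12 was the alpha member found in both, with 19.47 TPM in pup 1 against 6.77 TPM in pup 3. Pcdha9 had 9.76 TPM and Pcdha5 had 8.96 TPM in pup 1, both without reads in pup 3, and Pcdha3 had 0 reads in pup 1 and 1.42 expected reads in pup 3. Genes with more than 1 transcript were led by ENSMUST00000115662 for Pcdha2 (77.8% of its TPM in pup 1) and by ENSMUST00000192295 for Pcdha4 (68.5% in pup 1). The symbol Pcdha11 belongs to 2 identifiers in this annotation. The longer, ENSMUSG00000007440, overlaps the locus that RefSeq names Pcdha10 on the same assembly; it had 0.02 TPM (2.74 reads) in pup 1 and 33.37 TPM (4067.73 reads) in pup 3, or 82.8% of the alpha sum there. The shorter, ENSMUSG00000102206, had 4.23 TPM (59.02 reads) in pup 1 but 0 reads in pup 3. The alpha c-type genes were not found: Pcdhac2 had 2.22 expected reads in pup 1 and 0 in pup 3, and Pcdhac1 had 0 in both.

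In the beta cluster, whose sequences are nearly all distinct, 6 of 22 genes reached 1 TPM in at least 1 library, against 46.4% of all protein-coding genes. Of these 6 genes, 5 reached it in 1 library alone. Among all members that share was 37 of 54 (68.5%), and among all protein-coding genes it was 46.6%. Pcdhb2 had 0 reads in pup 1 and 44.91 TPM (1560 reads) in pup 3, and Pcdhb7 had 0.02 TPM in pup 1 and 30.68 TPM (2419 reads) in pup 3. Pcdhb17 had 12.74 TPM (1541.8 reads) in pup 1 but 0 reads in pup 3, and Pcdhb9 had 8.40 TPM in pup 1 but 0 reads in pup 3. Only Pcdhb19 was found in both, with 1.99 TPM (371.2 reads) in pup 1 and 27.88 TPM (4547.99 reads) in pup 3. Pcdhb4 had 1.49 TPM in pup 1 but 0 reads in pup 3, and Pcdhb22 had 0 reads in pup 1 and 0.50 TPM in pup 3. The other 15 beta genes had at most 1.01 expected reads in either library, and 13 had 0 in both. About 47.2% of Pcdhb2 TPM in pup 3 came from its single-exon transcript and 52.8% from a 511-base transcript. The 511-base transcript held 226.28 reads there, or 14.5% of the Pcdhb2 reads. The larger part of the Pcdhb2 level thus rested on the smaller part of its reads, over a short transcript.

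In the gamma cluster 17 of 21 members were found in pup 1 and 7 in pup 3, 6 of them in both. The shares over all protein-coding genes were 42.2% in pup 1, 29.0% in pup 3 and 24.8% in both. The c-type genes Pcdhgc4 and Pcdhgc3 were the highest and both pups had them. Pcdhgc4, which mouse work links to the survival of neurons, had 104.35 TPM in pup 1 and 66.03 TPM in pup 3 (mean 85.2 ± 27.1, SD, n = 2). Pcdhgc3 had 57.72 TPM in pup 1 and 53.35 TPM in pup 3 (mean 55.5 ± 3.1, SD, n = 2). The c-type genes, with Pcdhgc5 at 0.57 TPM in pup 1 but 0 reads in pup 3, made up 49.1% of the gamma sum in pup 1 and 57.5% in pup 3. Part of the Pcdhgc4 level came from ENSMUST00000195239, of whose windows 93.0% occur in other members; without that transcript the gene had 62.04 TPM in pup 1 against 46.93 TPM in pup 3. The Pcdhgc3 level was steadier than its transcripts: the coding form ENSMUST00000076807 made up 79.3% in pup 1 and 0.58% in pup 3, and a form annotated for nonsense-mediated decay, ENSMUST00000192103, made up 20.7% in pup 1 and 97.3% in pup 3.

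Among a-type and b-type gamma genes the pups again differed in which members carried the signal. Pcdhga4 had 45.27 TPM in pup 1 and 23.25 TPM in pup 3 (mean 34.3 ± 15.6, SD, n = 2). Pcdhga2 had 12.45 TPM in pup 1 and 35.13 TPM in pup 3, and Pcdhga5 had 1.5 TPM in pup 1 and 19.47 TPM in pup 3. Pcdhga11 had 27.17 TPM in pup 1 but 0 reads in pup 3. Pcdhga3 had 11.13 TPM in pup 1 and 1.00 TPM in pup 3, and its log2 ratio of 3.48 was the highest among members found in both. Of the 12 a-type genes, 11 were found in pup 1 and 4 in pup 3. Of the 6 b-type genes, 4 were found in pup 1 and 1 in pup 3, Pcdhgb7 with 0 reads in pup 1 and 9.20 TPM in pup 3. The other 10 a-type and b-type genes found in pup 1 alone ran from 1.5 TPM (Pcdhga8) to 14.51 TPM (Pcdhga1) in pup 1 and held at most 3.18 expected reads in pup 3. Pcdhgb4, at 11.32 TPM in pup 1 but 0 reads in pup 3, was divided in pup 1 between the coding ENSMUST00000195363 (54.6%) and the processed transcript ENSMUST00000195069 (45.4%), and Pcdhga4 was led by ENSMUST00000194418 with 100% in pup 1 and 91.6% in pup 3. Pcdhga12 had 1.59 expected reads in pup 1 and 0 in pup 3, and Pcdhgb2 was the only gamma member with 0 reads in both.

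**Figure D5:**
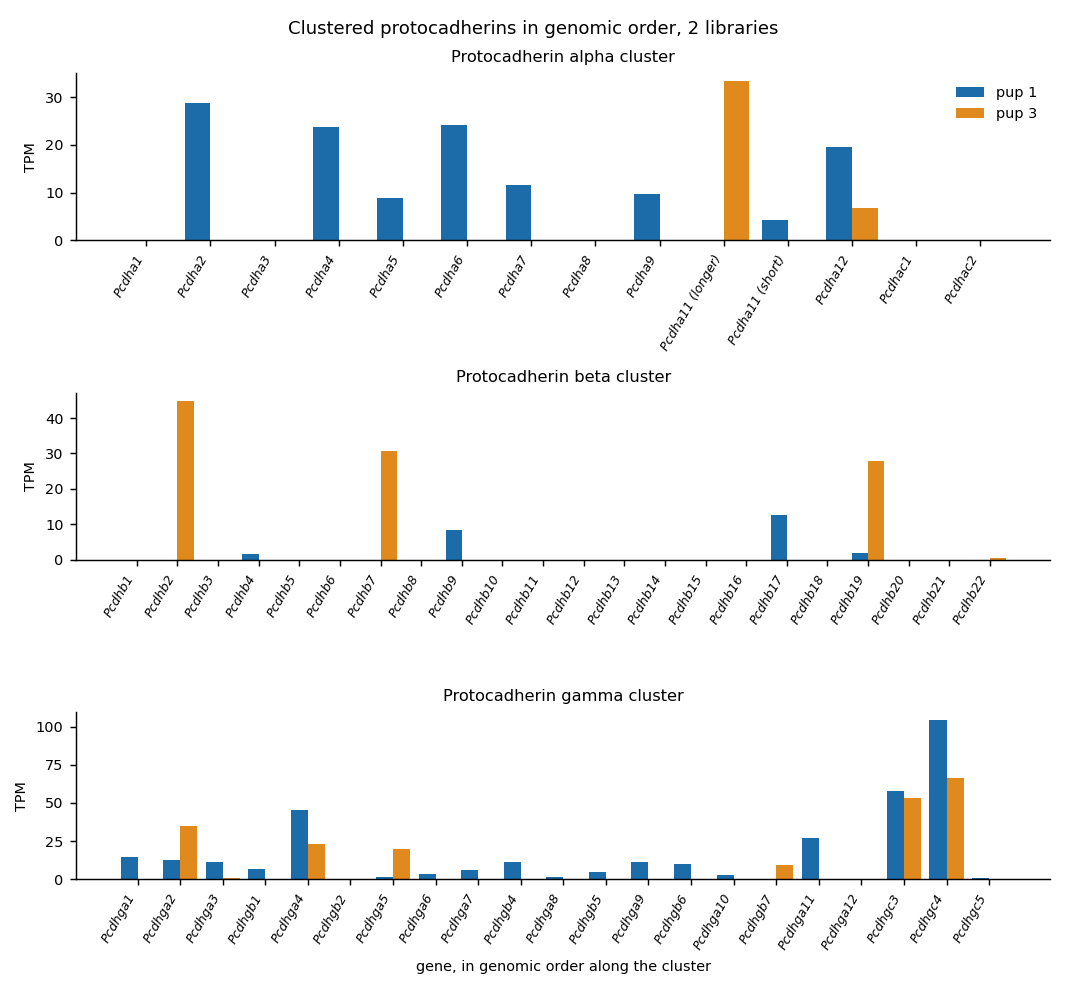
TPM of clustered protocadherins in pup 1 (left bar) and pup 3 (right bar), in genomic order within each cluster. Pcdhgc3 and Pcdhgc4 stand in both pups, at 57.72 and 104.35 TPM in pup 1 and 53.35 and 66.03 TPM in pup 3, while Pcdha12 and Pcdhb19 are the alpha and beta genes found in both.

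Another 21 annotated genes overlap the clusters, and 17 of them had 0 reads in both pups. The 3 protein-coding readthrough entries among them, which run from the alpha cluster into the gamma constant exons, all had 0. Reads that fit both such an entry and a member were divided by the counter, so these values are estimates too. Of the windows of the leading Pcdha4 transcript, 60.6% occur in another member and 96.1% in any other listed gene.

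Members were also grouped by their mean over the same 2 libraries. A gene missed in 1 pup has a lower mean for that reason, so these shares cannot show whether detection followed level. At a mean of 1 to 10 TPM, 2 of 28 members were found in both (7.1%, against 15.2% of all protein-coding genes at that level). At 10 to 50 TPM, 10 of 18 were (55.6%, against 53.1%), and at 50 TPM or more all 5 were, namely Cdh13, Pcdhgc4, Cdh4, Pcdhgc3 and Cdh2 (against 95.6%). Of the 17 members found in both, 9 lay within 2-fold (52.9%, against 50.5% of all protein-coding genes found in both), and their log2 ratios ran from -4.47 to 3.48. Most non-clustered members found in both, 6 of 9, lay within 2-fold, and 3 of 8 clustered members did.

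The 28 members with 0 reads in both libraries were, among classical cadherins, Cdh1, Cdh3, Cdh9, Cdh19, Cdh22 and Cdh24, and among other cadherins Cdh16, Cdh17, Cdh23 and Cdh26. Pcdh12 stood alone among the non-clustered protocadherins. In the alpha cluster they were Pcdha1, Pcdha8 and Pcdhac1, and in the gamma cluster Pcdhgb2. In the beta cluster they were Pcdhb1, Pcdhb3, Pcdhb6, Pcdhb8, Pcdhb10 to Pcdhb16, Pcdhb18 and Pcdhb21. At this input a count of 0 shows only that the RNA was not detectable.

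The proteins that work with cadherins were read from lists taken from textbook knowledge. Beside every count from these lists stand the shares over all protein-coding genes, 42.2% found in pup 1 and 29.0% in pup 3. Of 9 catenins, 7 were found in pup 1 and 5 in pup 3. Ctnnb1, beta-catenin, which joins classical cadherins to alpha-catenin, had 208.84 TPM in pup 1 and 64.03 TPM in pup 3, and neuronal alpha-catenin Ctnna2 had 48.07 TPM in pup 1 and 48.13 TPM in pup 3. Ctnnd1, p120-catenin, which holds cadherins at the surface, had 13.01 TPM in pup 1 and 42.48 TPM in pup 3. Of 15 cytoplasmic effectors of protocadherins, all were found in pup 1 and 11 in pup 3, with sums of 1302.78 TPM in pup 1 and 553.74 TPM in pup 3. Brk1 and Abi2, parts of the WAVE complex, led the list with Pdcd10. Brk1 had 467.36 TPM in pup 1 and 168.61 TPM in pup 3, Abi2 had 156.13 TPM in pup 1 and 123.77 TPM in pup 3, and Pdcd10 had 222.96 TPM in pup 1 and 54.36 TPM in pup 3.

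Of 13 regulators of clustered promoter choice, 12 were found in pup 1 and 10 in pup 3, with Dnmt3b at 0 reads in both. The cohesin subunits Smc1a and Rad21 had 40.97 and 47.94 TPM in pup 1 and 77.97 and 59.35 TPM in pup 3. Smchd1, a repressor of clustered protocadherins in mouse, had 4.71 TPM (679 reads) in pup 1 and 71.74 TPM (2204 reads) in pup 3. Its gap was thus smaller on reads than on TPM. Of 24 other cadherin-superfamily genes, 10 were found in pup 1 and 8 in pup 3. Clstn3, a synaptic calsyntenin, had 110.78 TPM in pup 1 against 49.44 TPM in pup 3. The giant cadherin Fat1 had 1.14 TPM in pup 1 and 125.04 TPM in pup 3, and Dchs1, a ligand of Fat4, had 25.38 TPM in pup 1 and 37.82 TPM in pup 3. On reads Fat1 had 438 in pup 1 and 4875 in pup 3, and Dchs1 ran the other way, with 7107 in pup 1 and 942 in pup 3. Of 7 cadherin-processing enzymes, 5 were found in pup 1 and 3 in pup 3. The sheddase Adam10 had 38.96 TPM in pup 1 and 18.55 TPM in pup 3, and the gamma-secretase subunits Aph1a and Psenen had 62.21 and 133.67 TPM in pup 1 and 41.54 TPM and 0 reads in pup 3.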

How the data were processed

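RNA was extracted with mirVana and made into Smart-seq libraries, per the labels' protocols. The authors deposited, for each library, a gene table and a transcript table with expected counts (estimated reads, in which a read that maps to several places is split), TPM, posterior mean TPM, FPKM and the percent of gene TPM in each isoform, per the file headers. The deposited text names assembly mm10 and annotation M4. Aligner, counter and versions: not given in the sources used here.

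GENCODE M21, also on mm10, gave symbols, biotypes and positions, by identifier without version. All 92 members were in both tables, with 265 transcripts, of which 249 (94.0%) had the same length in M21. Symbol Pcdhgb8 matched the rule but is not protein-coding (0 reads) and was left out. Named genes are members at a mean of 10 TPM or more, the 3 highest of each class and partner list, members with 0 reads, and isoforms of members at 5 TPM or more with 2 transcripts at 0.5 TPM or more. Others were chosen after their values were seen. Members and lists were chosen with earlier results of these data known. Shared windows were 100 bases long, since length minus effective length was 99. Shares were computed from transcript TPM. Steps were tested on simulated data. Alternatives changed the threshold, unit, scaling and filter. Computation used scipy 1.17.1, numpy 2.4.6, pandas 2.3.3 and matplotlib 3.10.9 in Python 3.11.15.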

Additional observations from a re-analysis of the deposited data

Results flagged for a closer look

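Non-member genes that overlap members also held a few reads outside the comparisons. The processed transcript 4932441J04Rik, on the strand opposite Pcdh7, had 40.96 expected reads in pup 1 and 3 in pup 3. Opposite the alpha cluster, Gm10544 had 27.0 and Gm10545 had 10.98 expected reads in pup 1, each with 0 in pup 3. BC037039, opposite Pcdhgc3, had 29.18 expected reads in pup 1 and 0 in pup 3, and Gm26672, opposite the gamma cluster, had 3.25 in pup 1 and 17.93 in pup 3. Each drew attention only by exceeding 3 reads in a gene that no comparison used. The strand setting of the counting is not given in the sources used here.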

How the results depend on the processing

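No paired analysis was possible because the libraries form 1 group. Counts of members found in both pups ran from 12 to 21 and in either pup from 45 to 58 over thresholds of 0.1 and 5 TPM, 3 reads, FPKM, posterior mean TPM and sums over transcripts. With a single library the count in either pup was 22 to 49, and the class sums ran from 146.1 to 247.1 TPM for classical cadherins, 132.4 to 144.8 for delta, 40.28 to 130.8 for alpha, 24.65 to 104.0 for beta and 207.5 to 331.4 for gamma. Without spike-ins and mitochondrial genes the delta sum was 156.6 TPM, against 138.6 TPM, and its share of the family was 21.5% on CPM, against 16.4%.

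Log2 ratios of pup 1 over pup 3 moved past counting error as follows. Without spike-ins and mitochondrial genes they were 0.70 for classical cadherins, -0.19 for delta, 1.64 for alpha and 0.61 for gamma. Beta moved as far, to -2.14, but stayed within its wider counting error. On FPKM they were 0.50 for classical cadherins, -0.39 for delta, 1.44 for alpha, -2.34 for beta and 0.41 for gamma. Both of these changes shifted every class alike, so they show nothing particular to a class. On CPM the log2 ratios were 1.02 for classical cadherins, -0.22 for delta, 1.34 for alpha and 0.46 for gamma. Beta gave -2.16 over members at a mean of 1 TPM or more. The median over members with 1 TPM added gave 0.036 for classical cadherins, 1.89 for alpha, 0 for beta and 1.87 for gamma, and 3.19 for delta, where it reversed: the sum follows Pcdh11x and Pcdh9 and the median follows the 6 genes found in pup 1 alone. The share of ENSMUST00000115662 in Pcdha2 was 87.1% as a posterior mean, against 77.8%, and the cause was not tested. At this depth 3 reads are worth at most 0.215 TPM, and 1 library per pup allows no error of a difference.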
